A study of Mus musculus with 4 samples.

Results

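The neutrophil-attracting CXC chemokines and their receptors were examined in the lungs of wild type (WT) and Rab44-knockout (Rab44-KO) mice under normal and ovalbumin (OVA)-induced conditions. The group holds 7 of the 41079 genes in the count table, matched by gene symbol. These are the chemokines Cxcl1, Cxcl2, Cxcl3, Cxcl5 and Cxcl15 and the receptors Cxcr1 and Cxcr2, and all 7 were found with counts in every library. Lung RNA was sequenced as 4 libraries, 1 for each genotype (WT and Rab44-KO) under each condition (normal and OVA-induced). The study used female WT and Rab44-KO littermates of 8 to 14 weeks on a C57BL/6 background, with Rab44 knocked out in the whole body by CRISPR/Cas9. For OVA induction, mice were sensitized by intraperitoneal injection of 100 μg OVA and alum on days 0, 7 and 14. Intranasal challenge with 100 μg OVA in a volume of 50 μL ran over days 17 to 20, before collection of the lungs on day 21. The normal mice are labelled as untreated, although the treatment protocol carried by the same labels also names a PBS challenge. How many mice stand behind each library is not given in the sources used here.

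CXC chemokines with an ELR motif, named for the amino acids before their first cysteines, are small secreted proteins that draw neutrophils out of blood vessels along a concentration gradient. They act through CXCR2, a G protein-coupled receptor of the neutrophil surface, and through the related receptor CXCR1. In lung, epithelial cells, macrophages and endothelial cells release them after microbial products, IL-1, TNF or IL-17, with transcription driven largely by NF-κB. Cxcl15, also called lungkine, differs from the others in that lung epithelium makes it constitutively.

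With 1 library per condition, no difference below has a replicate check and no p-value was computed. Every comparison is between 2 libraries, and every interval is a 95% interval that covers counting error only. The intervals are exact, except for those of the differences of OVA ratios. The counts summed to between 18112901 and 19910236 per library, so 1 count corresponded to 0.0513 to 0.0548 CPM, that is, counts scaled to a library of 1000000 after TMM normalization. Levels are given as raw counts and as CPM, and levels of genes are ordered only by TPM, the deposited transcript abundance, which sums to 1000000 in each library and corrects for length. Rab44 itself had 251 and 810 counts in the normal and OVA-induced lungs of WT mice, against 1 and 0 in those of Rab44-KO mice. No gene overlapped a member in the deposited table, and of the 150-base windows of each member's transcripts, other genes shared 8 of 2359 in Cxcl2 and 8 of 3702 in Cxcl3, in both cases with each other, and 0 in the other 5.

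The 5 chemokine genes lie on the plus strand of chromosome 5 within 147 kb of GRCm38 (GENCODE M21), in the order Cxcl5 (90759360 to 90761624), Cxcl3 (90786103 to 90789600), Cxcl15 (90794534 to 90803067), Cxcl1 (90891241 to 90893115) and Cxcl2 (90903871 to 90905938). Cxcr2 (74153989 to 74161246, plus strand) and Cxcr1 (74191785 to 74194631, minus strand) lie within 40.6 kb of each other on chromosome 1. Promoter sequences of 6 of the 7 genes were matched in RefSeq on GRCm38.p6, the exception being Cxcl5. The stretches from 150 to 31 bases before the RefSeq start are shown for the inducible chemokines Cxcl1, Cxcl2 and Cxcl3 and for their neighbor Cxcl15. Capitals mark the longest run of bases shared by the 250 bases upstream of Cxcl1, Cxcl2 and Cxcl3.
Cxcl1, chr5:90891095-90891214: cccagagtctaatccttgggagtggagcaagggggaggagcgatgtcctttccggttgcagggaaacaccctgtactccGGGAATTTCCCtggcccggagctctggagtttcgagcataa
Cxcl2, chr5:90903749-90903868: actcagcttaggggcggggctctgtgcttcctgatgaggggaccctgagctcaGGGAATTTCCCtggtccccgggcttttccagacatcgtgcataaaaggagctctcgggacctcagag
Cxcl3, chr5:90785951-90786070: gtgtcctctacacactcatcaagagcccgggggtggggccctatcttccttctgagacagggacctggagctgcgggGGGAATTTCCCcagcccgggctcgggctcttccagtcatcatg
Cxcl15, chr5:90794384-90794503: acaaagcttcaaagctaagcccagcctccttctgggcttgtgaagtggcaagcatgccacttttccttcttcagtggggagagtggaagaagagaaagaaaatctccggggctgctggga

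The shared run, GGGAATTTCCC, is 11 bases long and reads as a κB element, the DNA sequence that NF-κB binds. It begins 71 bases before the start of Cxcl1, 97 before that of Cxcl2 and 73 before that of Cxcl3. Searched on both strands, the run occurred in the 250 upstream bases of 11 of 27025 RefSeq promoters (0.0407%), and in none of those of Cxcl15, Cxcr1 and Cxcr2. The published κB consensus was searched as a pattern of 10 bases and overlapped this run on both strands. It occurred in 1014 of the 27025 (3.75%), again in Cxcl1, Cxcl2 and Cxcl3 and not in the other 3. A TATA-like ATAAAA, which does not overlap the run, was found upstream of Cxcl1, Cxcl2, Cxcl3 and Cxcr1 and in 17.6% of all promoters. These matches describe the letters of the window and were not measured as binding.

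Cxcl15 was by far the most abundant member in TPM, and the other member chemokines were measured at few counts. Cxcl15 had 944 and 1208 TPM in the normal lungs of WT and Rab44-KO mice, respectively, and 2026 and 1853 TPM in the OVA-induced lungs. Wherever 4 values are given together, they keep this sequence of libraries, with normal before OVA-induced lungs and WT before Rab44-KO within each condition. Cxcl15 made up 98.7% to 99.4% of the summed TPM of the 5 member chemokines in a library. The other 4 chemokines together had 5.58, 9.19, 27.2 and 17.2 TPM. In both normal lungs the TPM order after Cxcl15 was Cxcl1, Cxcr2, Cxcr1 and Cxcl5, with each neighboring pair apart by more than counting error. Among Cxcl5, Cxcl2 and Cxcl3 at the low end of the normal lungs, neighbors in the order did not differ beyond counting error. In OVA-induced WT lungs Cxcr1 was next after Cxcl15, at 37.6 TPM, followed by Cxcr2 at 17.3, Cxcl5 at 13.4 and Cxcl1 at 7.51. In OVA-induced Rab44-KO lungs Cxcr2 was next, at 27.9 TPM, well above Cxcl2 at 6.50. From Cxcl2 down to Cxcl5 at 5.56, Cxcl1 at 3.97 and Cxcr1 at 3.75, no neighbors differed beyond counting error.

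**Figure D1:**
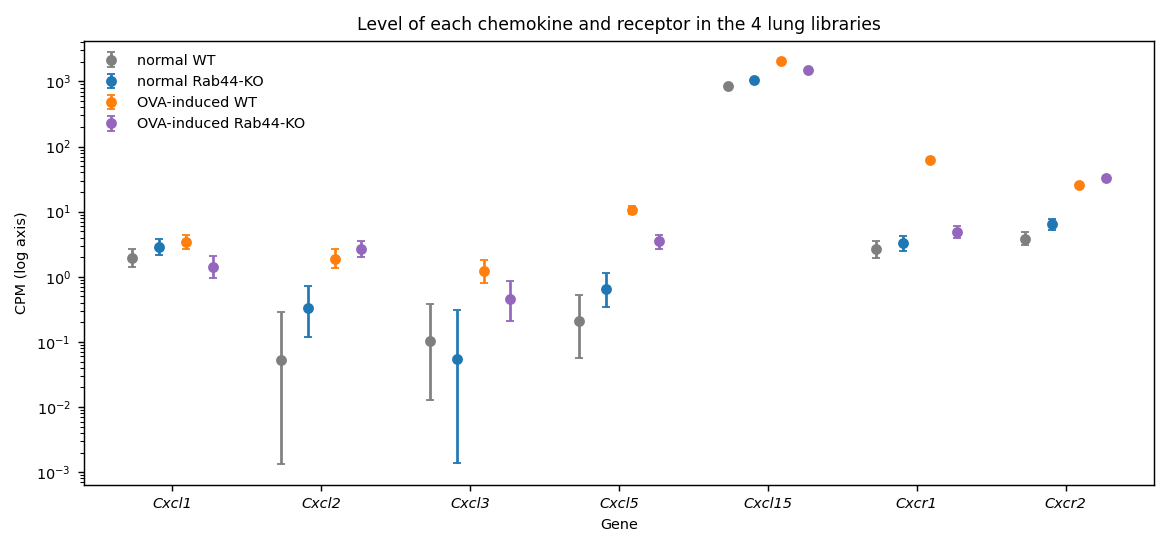
Level of each member in the 4 lung libraries, in CPM on a log axis. Each point is 1 library and each bar its exact 95% Poisson interval, which covers counting error only. Cxcl15 lies between 845 and 2047 CPM throughout, and the OVA-induced WT point of Cxcr1 (61.3 CPM) stands far above the other 3 (2.66 to 4.87 CPM), whereas both OVA-induced points of Cxcr2 (25.6 and 32.9 CPM) are high.

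Cxcl1, also known as KC, is an inducible chemokine and a classic ligand of CXCR2. It had 38 and 53 counts in the normal lungs of WT and Rab44-KO mice and 66 and 28 in the OVA-induced lungs (1.98, 2.90, 3.41 and 1.44 CPM). OVA-induced WT lungs were thus the highest and OVA-induced Rab44-KO lungs the lowest, and no library differed from its neighbor in this order by more than counting error. Cxcl2, or MIP-2, a second ligand of CXCR2 made largely by macrophages and neutrophils, had 1, 6, 37 and 52 counts (0.0521, 0.329, 1.91 and 2.67 CPM). Both OVA-induced lungs were above both normal lungs, and the OVA-induced pair did not differ beyond counting error (1.40-fold, 0.898 to 2.19). Cxcl3, closely related to Cxcl2, had 2, 1, 24 and 9 counts (0.104, 0.0548, 1.24 and 0.462 CPM). It was highest in OVA-induced WT lungs, and the remaining 3 libraries followed in steps within counting error.

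Cxcl5, or LIX, is made mainly by lung epithelium during inflammation. Its counts were 4, 12, 204 and 68 (0.208, 0.658, 10.5 and 3.49 CPM). Both OVA-induced lungs were above both normal lungs, WT above Rab44-KO, and the 2 normal lungs did not differ beyond counting error (3.16-fold, 0.957 to 13.4). Cxcl15 had 16218, 19357, 39638 and 29089 counts (845, 1061, 2047 and 1492 CPM), and all 3 neighboring steps of this order exceeded counting error. It shared with Cxcl5 the order of the 4 libraries over a much smaller range.

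The receptors are described next. Cxcr1 had 51 and 60 counts in the normal lungs of WT and Rab44-KO mice, and 1187 and 95 in the OVA-induced lungs (2.66, 3.29, 61.3 and 4.87 CPM). A single library, OVA-induced WT, was thus far above the remaining 3. Cxcr2 had 74, 117, 496 and 642 counts (3.85, 6.41, 25.6 and 32.9 CPM). Here both OVA-induced lungs were high, with Rab44-KO the highest. The ratio of Cxcr1 to Cxcr2 in TPM was 0.626 (0.430 to 0.907) and 0.466 (0.336 to 0.642) in the normal lungs of WT and Rab44-KO mice. In the OVA-induced lungs it was 2.18 (1.96 to 2.42) in WT and 0.134 (0.107 to 0.167) in Rab44-KO lungs. Cxcr1 therefore exceeded Cxcr2 in OVA-induced WT lungs and lay below it in the other 3 libraries. Because both receptors were counted in the same library, this ratio does not depend on how libraries were scaled.

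The first comparison asked how the members differed between OVA-induced and normal lungs of WT mice. All 7 reached the minimum used throughout, 10 counts in whichever library was higher, and 6 of them were over 2-fold higher after OVA (Cxcl2, Cxcl3, Cxcl5, Cxcl15, Cxcr1 and Cxcr2), with 0 over 2-fold lower. Across all 19023 genes past that minimum, 8.99% were over 2-fold higher and 5.2% over 2-fold lower. Higher genes were 63.4% of these calls, 53.6% on the TPM scale and 80.3% with intervals wholly beyond 2-fold. Cxcl5 had the largest member ratio, at 50.6-fold (log2 ratio 5.62, 4.28 to 7.55), and Cxcr1 was 23.1-fold higher (4.52, 4.12 to 4.96). Cxcr2 was 6.64-fold higher (2.73, 2.38 to 3.10). The log2 ratio of Cxcl2 was 5.03 (2.63 to 10.54) and that of Cxcl3 3.49 (1.56 to 6.70), both resting on 1 or 2 counts in the normal WT lung. Cxcl15 was higher by a log2 ratio of 1.28 (1.25 to 1.30), and Cxcl1 by 0.78 (0.19 to 1.40), which is under 2-fold. Of the 13575 genes that reached 100 counts in either library, 60 had a higher ratio than Cxcl5, 95 a higher one than Cxcr1 and 160 a higher one than Cxcr2.

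The same comparison was made in Rab44-KO lungs. Here 6 of 7 members passed the minimum, and 3 were over 2-fold higher after OVA (Cxcl2, Cxcl5 and Cxcr2), against 6.44% of 19073 genes. Cxcl1 was the 1 member over 2-fold lower, against 3.85% of genes, with a log2 ratio of -1.01 (-1.73 to -0.33) that lies at the threshold. Cxcl2 had a log2 ratio of 3.0 (1.80 to 4.53), Cxcl5 2.40 (1.51 to 3.43) and Cxcr2 2.36 (2.07 to 2.66). The OVA ratio of Cxcr2 was thus close in size to that in WT lungs. Cxcr1 was 0.57 higher on the log2 scale (0.09 to 1.06) and Cxcl15 0.49 (0.47 to 0.52), both under 2-fold, and Cxcl3, with 9 counts against 1, did not pass the minimum. Among the 13484 genes that reached 100 counts, 72 had a higher ratio than Cxcr2. Of all genes beyond 2-fold, 62.6% were higher, a share that became 72.8% on the TPM scale.

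Under normal conditions, the differences between Rab44-KO and WT lungs were under 2-fold for 4 of the 5 members that passed the minimum. The fifth, Cxcl5, was over 2-fold higher in Rab44-KO lungs, with 12 counts against 4 and a log2 ratio of 1.63 whose interval reached below 0 (-0.06 to 3.75). None was over 2-fold lower. The background was 2.77% of 18718 genes over 2-fold higher and 2% over 2-fold lower. Cxcr2 was higher by 0.73 (0.30 to 1.17) and Cxcl15 by 0.33 (0.30 to 0.36). For Cxcl1 the log2 ratio was 0.55 (-0.08 to 1.19) and for Cxcr1 0.31 (-0.26 to 0.88), so neither difference was detectable at this depth. Cxcl2 (6 counts against 1) and Cxcl3 (1 against 2) did not pass the minimum.

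Under OVA-induced conditions, 4 of the 7 members were lower by over 2-fold in Rab44-KO compared with WT lungs (Cxcl1, Cxcl3, Cxcl5 and Cxcr1), and 0 were over 2-fold higher. Across 19259 genes, the corresponding shares were 7.34% lower and 8.4% higher. The largest member difference was in Cxcr1, 12.6-fold lower (10.2 to 15.7), with a log2 ratio of -3.65 (-3.97 to -3.35). Of the 13704 genes that reached 100 counts in either library, 47 had a lower ratio. Among the chemokines, Cxcl5 had a log2 ratio of -1.59 (-2.01 to -1.19), Cxcl3 -1.41 (-2.71 to -0.27) and Cxcl1 -1.24 (-1.94 to -0.59). The intervals of Cxcl3 and Cxcl1 include differences smaller than 2-fold. Cxcl15 was lower by a log2 ratio of -0.46 (-0.48 to -0.43). The remaining pair lay on the other side, with Cxcr2 higher by 0.36 (0.19 to 0.53) and Cxcl2 at 0.48 (-0.15 to 1.13). On the TPM scale, on which the median of all genes was shifted by 0.33, Cxcl1 was no longer over 2-fold lower (-0.90), Cxcl15 stood at -0.13 and Cxcr2 at 0.69. Of all genes over 2-fold, 53.4% were higher in Rab44-KO lungs. This share was 77.0% on the TPM scale, and it fell below 50% with a count minimum of 50 (48.8%), beyond a log2 ratio of 2 (45.9%) and with intervals wholly beyond 2-fold (43.6%).

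**Figure D2:**
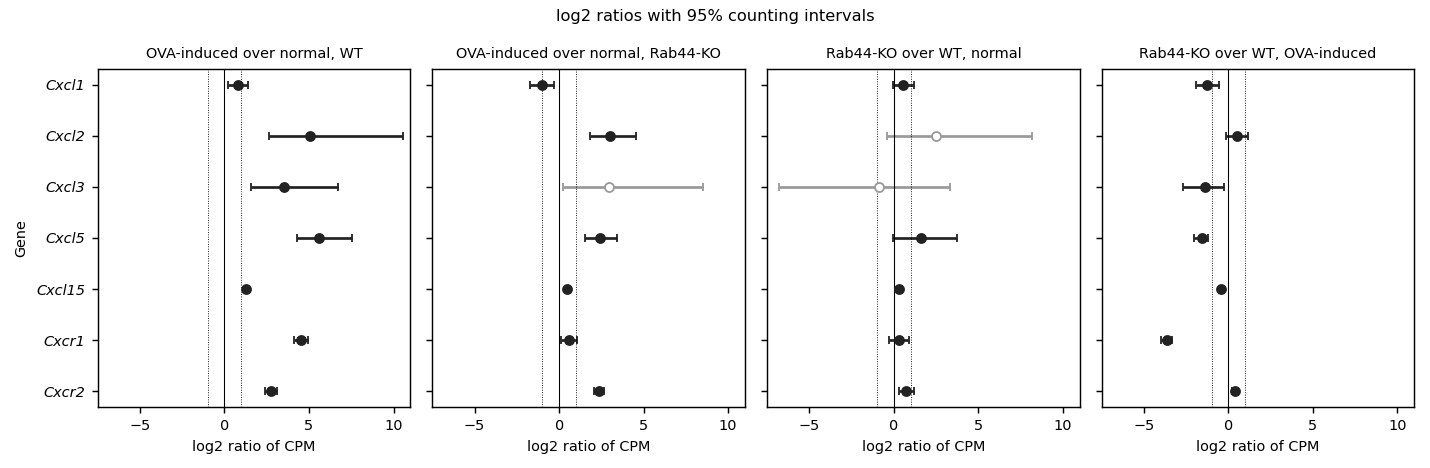
The log2 ratio of CPM of each member (rows) in the 4 comparisons (panels), with exact 95% counting intervals as bars. Dotted lines mark 2-fold, and open gray points mark members under the minimum of 10 counts. Cxcr1 stands at 4.52 in the first panel and at -3.65 in the last, where Cxcr2 stands at 0.36.

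The OVA ratio in Rab44-KO lungs minus that in WT lungs was taken for each member on the log2 scale. The difference was -3.96 (-4.58 to -3.34) for Cxcr1, -3.22 (-4.90 to -1.54) for Cxcl5 and -1.79 (-2.67 to -0.92) for Cxcl1. Cxcl15 had a difference of -0.78 (-0.82 to -0.75). These 4 intervals excluded 0. Those of Cxcr2, at -0.37 (-0.82 to 0.08), and of Cxcl2, at -2.04 (-5.15 to 1.08), included it, as did the interval of Cxcl3 around a difference of -0.56. These intervals use a normal approximation on log counts, which is rough for the members with the lowest counts. They hold counting error of 4 libraries and no variation between mice.

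Summed markers of cell types were read beside the receptors and chemokines, since in bulk lung fewer cells of a type and less RNA per cell cannot be told apart. The all-gene shares given above for each comparison are the background for the counts of list genes below. The 18 neutrophil markers summed to 205, 248, 712 and 856 CPM. Of 16 past the minimum in WT lungs, 15 were over 2-fold higher after OVA, and of 17 in Rab44-KO lungs 15 were, with G0s2 over 2-fold lower. Defining markers of the lineage were at 0 in part of the libraries. Ly6g, Ngp, Camp, Mpo and Elane had 0 counts in normal WT lungs, and Elane had 0 in normal Rab44-KO lungs. Between the 2 OVA-induced lungs, 4 of 17 neutrophil markers were over 2-fold higher in Rab44-KO (Ly6g, Mmp8, Stfa2l1 and Trem1), 0 were over 2-fold lower, and the median log2 ratio was 0.48 against -0.02 over all genes. By TPM, 6 were higher and the median was 0.81. The markers were not uniform, with 7 of the 17 below 0, among them Ltf at -0.79 and Cd177 at -0.71, and Ly6g rested on 20 counts against 9. The order of the 4 libraries by this sum was that of Cxcr2 and not that of Cxcr1. The part of neutrophil number in either receptor's level was not tested.

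The summed macrophage and eosinophil markers were highest in OVA-induced WT lungs, as Cxcr1 was, although Ear1 was higher in OVA-induced Rab44-KO lungs (436 counts against 258) and Cd163 did not differ beyond counting error (350 against 321). The 9 macrophage markers summed to 252, 270, 749 and 291 CPM, none was at 0, and 7 of 9 (5 on the TPM scale) were over 2-fold lower in OVA-induced Rab44-KO than WT lungs (median log2 ratio -1.72). The 10 eosinophil markers summed to 113, 112, 263 and 144 CPM, and 6 of 8 past the minimum were over 2-fold lower in that comparison (median -1.59), or 4 lower and 1 higher on the TPM scale. Epx, the eosinophil peroxidase gene and the defining member, had 1 count in OVA-induced WT lungs and 0 elsewhere. T cell markers summed to 67.6, 74.3, 140 and 87.0 CPM and B cell markers to 165, 123, 340 and 215 CPM. Of these, 4 of 7 T cell markers and 1 of 5 B cell markers, Cd79b, were over 2-fold lower in OVA-induced Rab44-KO lungs, and 0 of both lists were so on the TPM scale. The T and B cell sums too were highest in OVA-induced WT lungs. The part of these 4 cell types in the Cxcr1 difference was not tested.

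For the epithelial chemokines Cxcl5 and Cxcl15, alveolar type 2 and club cell markers are the nearest reference. The 9 alveolar type 2 markers summed to 21804, 21827, 31894 and 19312 CPM and the 5 club cell markers to 26085, 26626, 18157 and 21110 CPM. The alveolar type 2 sum was highest in OVA-induced WT lungs and lowest in OVA-induced Rab44-KO lungs. The lowest place rests on Sftpc, at 13657, 13035, 18690 and 9290 CPM, without correction for length. Without Sftpc, the sum in OVA-induced Rab44-KO lungs lies above those in both normal lungs. The median log2 ratio of the 9 markers was 0.56 after OVA in WT lungs and 0.08 in Rab44-KO lungs, beside 1.28 and 0.49 for Cxcl15. Between the OVA-induced lungs it was -0.51 beside -0.46 for Cxcl15. The club cell medians in the same comparisons were -0.86, -0.44 and 0.62, opposite in sign to Cxcl15. For Cxcl5 the log2 ratios were 5.62, 2.40 and -1.59. Endothelial markers summed to 2299 to 3070 CPM. Platelet markers, which include the neutrophil-attracting chemokine gene Ppbp, summed to 89.9, 52.9, 66.5 and 135 CPM, and mesothelial markers, from the cells that cover the lung surface, to 58.0, 123, 165 and 158 CPM. Between the OVA-induced lungs, over 2-fold differences were found in Sftpc (lower in Rab44-KO), 1 of 9 alveolar type 2 markers, in Bpifa1 (higher), 1 of 5 club cell markers, in Tek (higher), 1 of 6 endothelial markers, and in 6 of 10 platelet markers (higher), but in 0 of 4 mesothelial markers. Sftpc lay at the threshold, and its call was lost on the TPM scale and with total counts only, while on the TPM scale 2 club cell, 2 endothelial, 7 platelet and 1 mesothelial markers were over 2-fold higher. The parts of these cell types in the chemokine values were not tested.

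**Figure D3:**
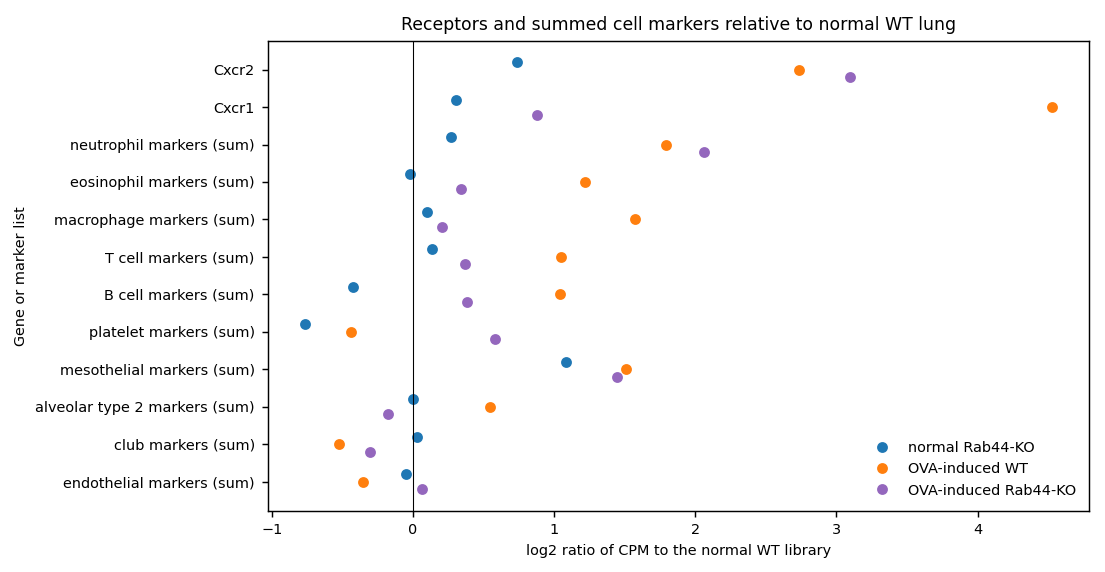
The 2 receptors and the summed markers of 10 cell types, each as the log2 ratio of its CPM to that in the normal WT library, with 1 point for each of the other 3 libraries. Cxcr2 (2.73 and 3.09) and the neutrophil sum (1.79 and 2.06) are high in both OVA-induced lungs, whereas Cxcr1 (4.53 and 0.88), macrophage (1.57 and 0.20) and eosinophil (1.22 and 0.34) values are high in OVA-induced WT lungs.

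Genes with the most similar course over the 4 libraries were found among 12817 protein-coding genes with at least 100 counts in their highest library, by the root mean square difference of centered log2 CPM. With 4 points per gene this is a description of shape. Cxcr1 lay nearest to Mmp12, the macrophage elastase gene (difference 0.21), Fcgbp, which encodes a mucus-associated Fc-binding protein (0.22), and Ly6i of the Ly6 family (0.24). Mmp12 had 101, 100, 2153 and 126 counts and Fcgbp 117, 102, 2978 and 179. Cxcr2 lay nearest to Clec4e, the Mincle receptor gene (0.089), the transcription factor gene Nfil3 (0.18) and S100a8, a calprotectin subunit that is also among the neutrophil markers (0.20). S100a8 had 336, 367, 2012 and 2693 counts. The 2 receptors differed from each other by 1.43 on this scale.

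For the chemokines, the nearest genes to Cxcl5 were Jchain, the joining chain of secreted immunoglobulin (0.32), AA467197 (0.61) and the acute-phase gene Saa3 (0.63). Jchain had 266, 521, 15799 and 4761 counts. Cxcl15 was followed closely by the transglutaminase gene Tgm1 (0.022), the complement factor gene Cfb (0.053) and Tmem154 (0.064), with Cfb at 763, 1004, 1989 and 1410 counts. Cxcl5 and Cxcl15 shared the order of libraries but differed by 1.68, with a far wider range in Cxcl5. Cxcl1, Cxcl2 and Cxcl3 had fewer than 100 counts in every library and were left out.

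**Figure D4:**
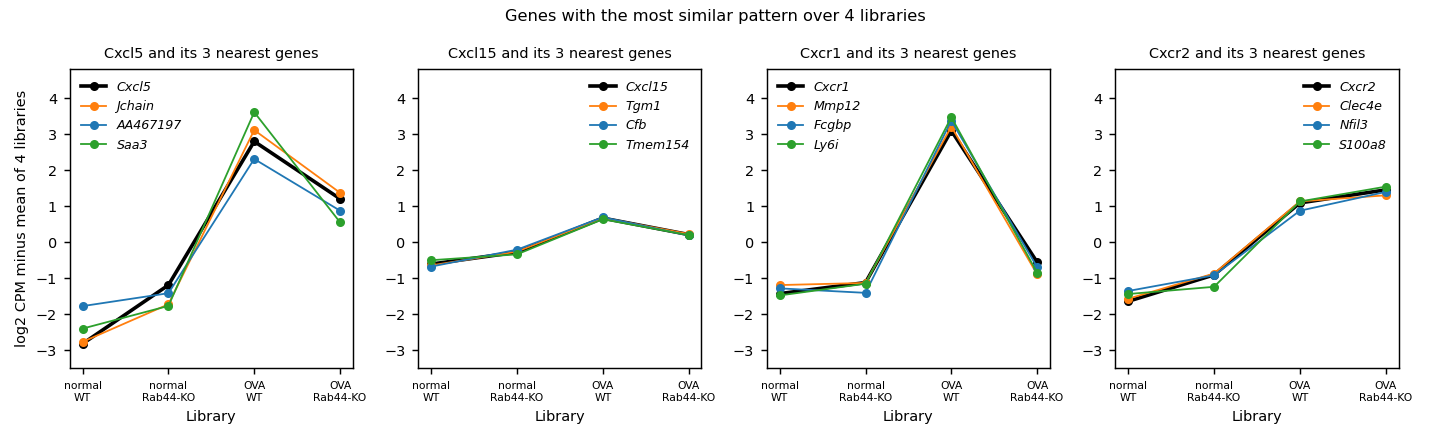
Centered log2 CPM (log2 CPM minus the mean of the 4 libraries) of 4 members in black and of the 3 genes nearest to each in color, with the libraries along the x axis. Cxcr1, Mmp12, Fcgbp and Ly6i peak in OVA-induced WT lungs, whereas Cxcr2, Clec4e, Nfil3 and S100a8 are highest in OVA-induced Rab44-KO lungs.

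Some cytokines upstream of these chemokines were sparse in whole lung. Of 16 genes of the IL-17 axis and of inducing cytokines, Il17a was counted in 1 library (OVA-induced Rab44-KO, 4 counts), Il22 had 0 in all 4, and Csf3, which drives neutrophil production, had 2 to 4. In WT lungs 4 of 10 past the minimum were over 2-fold higher after OVA (Il1a, Il1b, Il6 and Tnfaip3), with a median log2 ratio of 0.84, and 0 were lower. In Rab44-KO lungs 0 of 9 were higher and Csf2, at 6 counts against 28, was over 2-fold lower. Under OVA-induced conditions 4 of 10 were over 2-fold lower in Rab44-KO than WT lungs, namely Csf2, Il1a, Il6 and Tnf, and 0 were higher, with a median of -0.58. On the TPM scale 2 were lower and the median was -0.25, and Il6 rested on 6 counts against 13. Il1a, an epithelial and myeloid alarmin, had 156 counts against 58 (-1.43, -1.90 to -0.99). Il1b differed less (471 and 386 counts, -0.30, -0.49 to -0.10), as did the IL-17 receptor gene Il17ra (-0.43) and Zc3h12a, which encodes an RNase that destroys cytokine mRNA (-0.73). Under normal conditions 0 of 9 differed over 2-fold.

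Other neutrophil attractants and their receptors were mostly higher after OVA in WT lungs. Of 16 genes, 11 were over 2-fold higher after OVA in WT lungs (median log2 ratio 1.61) and 7 in Rab44-KO lungs (0.75), with 0 lower in both. Between OVA-induced lungs, 4 were over 2-fold lower in Rab44-KO (Ackr1, Ccl3, Ccl4 and Lgals3), and the platelet chemokine gene Ppbp was over 2-fold higher, with a median of -0.43. By TPM, 3 were lower and 3 higher, with a median of -0.11. Lgals3, encoding galectin-3 of macrophages, had 7321 counts against 2392 (-1.62, -1.69 to -1.56), and Ccl3 had 110 and 39 (-1.50, -2.07 to -0.97). Ppbp had 252 and 713 counts (1.49, 1.28 to 1.70), and was also the 1 gene of 15 over 2-fold lower in Rab44-KO lungs under normal conditions (180 against 423). The platelet-activating factor receptor gene Ptafr was lower by -0.89 (-1.14 to -0.63).

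CXC chemokines outside the neutrophil group, which act on lymphocytes and other cells, were counted alongside. Of 13 past the minimum, 6 were over 2-fold higher after OVA in WT lungs and 1, Cxcl12, in Rab44-KO lungs. Cxcl9, Cxcl10, Cxcr3 and Cxcr6 were over 2-fold lower in Rab44-KO than WT lungs under OVA-induced conditions, and 0 were over 2-fold higher (median -0.76). On the TPM scale 2 were lower and 1 higher (median -0.43). Cxcl9, a CXCR3 ligand induced by interferon, had 105 counts against 12 (-3.13, -4.14 to -2.27), and Cxcl10, a further CXCR3 ligand, had 107 against 21 (-2.35, -3.11 to -1.67). Their receptor gene Cxcr3 was lower by -1.25 and Cxcr6, the receptor for Cxcl16, by -1.12. Under normal conditions the same 2 ligands were over 2-fold higher in Rab44-KO lungs, Cxcl9 with 13 counts against 6, a ratio whose interval included no difference, and Cxcl10 with 36 against 8.

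Adhesion genes used by rolling neutrophils and genes for the signaling proteins below CXCR2 were examined as well. Of 12 adhesion genes, 6 were over 2-fold higher after OVA in WT lungs and 2 in Rab44-KO lungs (Itgal and Itgam). Between OVA-induced lungs 1 was over 2-fold lower, the endothelial selectin gene Sele at 30 counts against 61, and the list median was -0.29, or 0.03 on the TPM scale. The Sele call was lost on the TPM scale, with total counts only and with a prior count of 2. It was also lost beyond a log2 ratio of 2 and with intervals wholly beyond 2-fold. Itgb2, the common chain of the leukocyte integrins, was lower by -0.96 (-1.03 to -0.90), the selectin ligand gene Selplg by -0.70 and P-selectin, Selp, by -0.57, whereas Glg1 was higher by 0.52. Of 20 signaling genes, 6 were over 2-fold higher after OVA in WT lungs and 0 in Rab44-KO lungs, and 0 differed over 2-fold between the genotypes in either condition (1 was higher in OVA-induced Rab44-KO lungs on the TPM scale). Among the larger differences there were those in the PI3Kγ subunit gene Pik3r5 (-0.91), the small GTPase gene Rac2 (-0.79) and the β-arrestin gene Arrb1 (0.74).

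The Gene Ontology term for neutrophil chemotaxis in the deposited annotation, read after the values were seen, holds 58 genes including all 7 members. Of the other 51, 22 of 49 past the minimum were over 2-fold higher after OVA in WT lungs and 12 of 48 in Rab44-KO lungs, with 0 lower in both. Between OVA-induced lungs, Rab44-KO was over 2-fold higher for 5 of 49 (Ccl28, Itga1, Itgb2l, Ppbp and Trem1), against 8.4% of all genes. It was lower for 9, against 7.34% of all genes, and the list median was -0.04. By TPM, 6 were higher and 6 lower, and the median was 0.29. Among genes of the term with at least 100 counts in either OVA-induced library, the monocyte chemokine gene Ccl2 had the largest difference besides Cxcl9, Cxcl10 and Lgals3. It had 100 counts against 23 (-2.12, -2.85 to -1.46).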

How the data were processed

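Lung RNA from 4 libraries was analyzed, each assigned to its condition by its label. Per the study's methods and the labels, the authors prepared directional libraries for paired-end sequencing (150 bp), aligned the trimmed reads by HISAT2 against GRCm38, and used featureCounts for gene counts. Versions, strand setting and the handling of multiply matching reads are not given in the sources used here. The authors deposited raw counts and TPM, and over 15583 genes (more than 20 counts in all libraries) the deposited TPM equal these counts divided by a single length per gene and a single factor for each library. A ratio of counts between libraries is therefore not affected by gene length, while reads that match several genes could alter low counts of related genes. Deposited gene starts equaled those of RefSeq GRCm38.p6 for 2.12% of 39405 matched genes, so positions were taken from GENCODE M21 and promoters from RefSeq, both on GRCm38, and no coordinates were converted.

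Counts were scaled by TMM (edgeR 4.0.16, R 4.3.3; factors 0.973 to 1.02). The log2 ratio used a prior count of 0.125 and needed at least 10 counts in the higher library, and over 2-fold means beyond a log2 ratio of 1. Clopper-Pearson and Poisson intervals (95%) were computed in Python 3.11.15 with scipy 1.17.1, pandas 2.3.3 and numpy 2.4.6, and figures were drawn with matplotlib 3.10.9. List medians used genes past the minimum, and the neutrophil median did not change with 3 genes at 0 counts set to a floor of 3 counts. Scripts were tested on simulated data. A test between 2 single libraries has no residual degrees of freedom, and none was run.

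The members and all lists were chosen with earlier results of these data known. Named were all members, the 3 nearest genes of each member with at least 100 counts, the 4 genes per pathway list with the largest absolute log2 ratio of Rab44-KO to WT under OVA and at least 100 counts, marker sums, and Rab44. A gene that this rule selects is not reported here. Other list genes named by a count of few genes, and the Gene Ontology term, were chosen after their values were seen. Alternatives in scaling were size factors of DESeq2 1.42.0, no factor beyond the total, and TMM either from the compared pair alone or with immunoglobulin genes left out. Further alternatives were TPM with a pseudocount of 0.1, a prior count of 2, count minimums of 1 and 50, a log2 ratio beyond 2, and intervals wholly beyond 2-fold.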

Additional observations from a re-analysis of the deposited data

Results flagged for a closer look

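Opposite directions between groups were seen for 4 members, and none of these differences could be tested with 1 library per condition. Cxcl1 was higher after OVA in WT and lower after OVA in Rab44-KO lungs, and it was also higher in Rab44-KO than WT lungs under normal conditions but lower under OVA-induced conditions, which gives the same difference of log2 ratios, -1.79. Cxcl5 (-3.22), Cxcl15 (-0.78) and Cxcr1 (-3.96) were likewise above WT in normal and below WT in OVA-induced Rab44-KO lungs. Under normal conditions the intervals of Cxcl1, Cxcl5 and Cxcr1 included 0, whereas that of Cxcl15 did not.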

How the results depend on the processing

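Of 150 recomputed log2 ratios of members, 143 stayed within their main counting interval and 7 did not, and no member's log2 ratio changed sign. On the TPM scale 4 list medians changed sign, those of the adhesion genes (-0.29 to 0.03) and the Gene Ontology term (-0.04 to 0.29) between OVA-induced lungs, of the IL-17 list after OVA in Rab44-KO lungs (-0.04 to 0.08) and of endothelial markers between normal lungs (-0.02 to 0.0078). The count of members over 2-fold lower after OVA in Rab44-KO lungs was 1 and became 0 with DESeq2 size factors, total counts only, TPM, a prior count of 2, a log2 ratio beyond 2, or intervals wholly beyond 2-fold. The 1 member over 2-fold higher in Rab44-KO than WT lungs under normal conditions became 2 with a count minimum of 1, and 0 with a minimum of 50, a log2 ratio beyond 2, or intervals wholly beyond 2-fold. Of the 4 members lower in Rab44-KO lungs under OVA-induced conditions, the count was 1 beyond a log2 ratio of 2, 2 by intervals wholly beyond 2-fold, and 3 on the TPM scale (without Cxcl1) and at a count minimum of 50 (without Cxcl3). The difference of OVA responses for Cxcl15 (-0.78) was -0.73 with total counts only and -0.48 with TPM, and that of Cxcr1 ranged from -3.96 to -3.61. With a prior count of 2, that of Cxcl2 (-2.04) was -1.01 and that of Cxcl3 (-0.56) was -0.86. With TPM, that of Cxcr2 (-0.37) was -0.055. These stayed within their main counting intervals. Counts over all genes moved beyond 1.5 times in 35 of 80 recomputations and those within lists in 121 of 1280, and 49 of 384 list medians moved by 0.1 or more. The main counts of 1710 higher and 989 lower after OVA in WT lungs ranged from 647 to 4219 and from 200 to 3325, those of 1229 and 734 in Rab44-KO lungs from 365 to 3937 and from 129 to 3136, those of 519 and 374 between normal lungs from 51 to 3068 and from 19 to 2521, and those of 1617 and 1413 between OVA-induced lungs from 350 to 4404 and from 413 to 3552, with the highest at a count minimum of 1. No paired analysis was possible because each condition has 1 library, and leaving out a library would remove every comparison that uses it. Apart from the pseudocount, a change to TPM moves every ratio of a comparison by 1 shared amount, the change of library factors. Why these factors differ was not tested. The cause of the other shifts was not tested either, apart from those set by a stricter or looser threshold. Member chemokines other than Cxcl15 had at most 204 counts, which limits their precision.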
